A study of Mus musculus with 6 samples.

Results

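Indian hedgehog and parathyroid hormone-related protein (PTHrP) form a feedback loop that paces the growth plate, and 9 genes of it were followed in knee joint cartilage of WT and *Hbb*-cKO mice. They are the ligand genes *Ihh* and *Pthlh* (the gene of PTHrP), the receptor genes *Pth1r*, *Ptch1* and *Smo*, the transcription factor genes *Gli1*, *Gli2* and *Gli3*, and *Hhip*, which encodes a decoy that binds hedgehog ligands at the cell surface. The genes were chosen by name, with earlier results of these data known. All 9 were found once each among the 55487 genes of the count table and were among the 17175 genes tested. Poly(A) RNA was sequenced from knee joint cartilage at postnatal day 6 in 3 WT libraries and in 3 *Hbb*-cKO libraries, in which *Hbb* had been deleted conditionally in chondrocytes. In the study's methods, *Hbb*-cKO mice carry floxed *Hbb* alleles and *Col2a1*-Cre ERT2, a Cre that acts after tamoxifen in cells that use the *Col2a1* promoter. The labels name neither the Cre line and tamoxifen schedule of these libraries nor the number of mice per library. The p-values therefore measure the spread between libraries.

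In the growth plate, chondrocytes that leave the cell cycle and begin to enlarge secrete Indian hedgehog. The ligand binds Ptch1, which otherwise holds back Smo, and the signal reaches the nucleus through the Gli factors, of which Gli1 is an activator whose own gene is a target, Gli2 acts mainly as an activator and Gli3 mainly as a repressor. *Ptch1*, *Gli1* and *Hhip* are the classical target genes. Hedgehog signalling maintains PTHrP made near the joint surface and in the resting zone, and PTHrP acts through Pth1r on proliferating and prehypertrophic chondrocytes to delay hypertrophy. The ligands and the cells that read them thus lie in different zones, all of which enter a library of whole cartilage. In such bulk RNA, fewer cells of a type and less RNA per cell cannot be told apart.

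None of the 9 genes passed an adjusted p of 0.05 between *Hbb*-cKO and WT in edgeR's quasi-likelihood test, beside 0.105% of all genes tested, and none passed in DESeq2, beside 1.45%. *Pth1r* had an unadjusted p under 0.05 in both tools, and in edgeR 10.1% of all genes tested had one. The *Hbb*-cKO libraries were all above the WT libraries for 2 of the 9 genes, *Pth1r* and *Smo*, beside 8.70% of all genes, and all below them for 0 of 9, beside 8.96%. Log2 fold changes of the 9 genes ran from -0.13 for *Pthlh* to 0.47 for *Pth1r*, with 7 positive and 2 negative, and the median over all genes tested was -0.01.

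**Figure D1:**
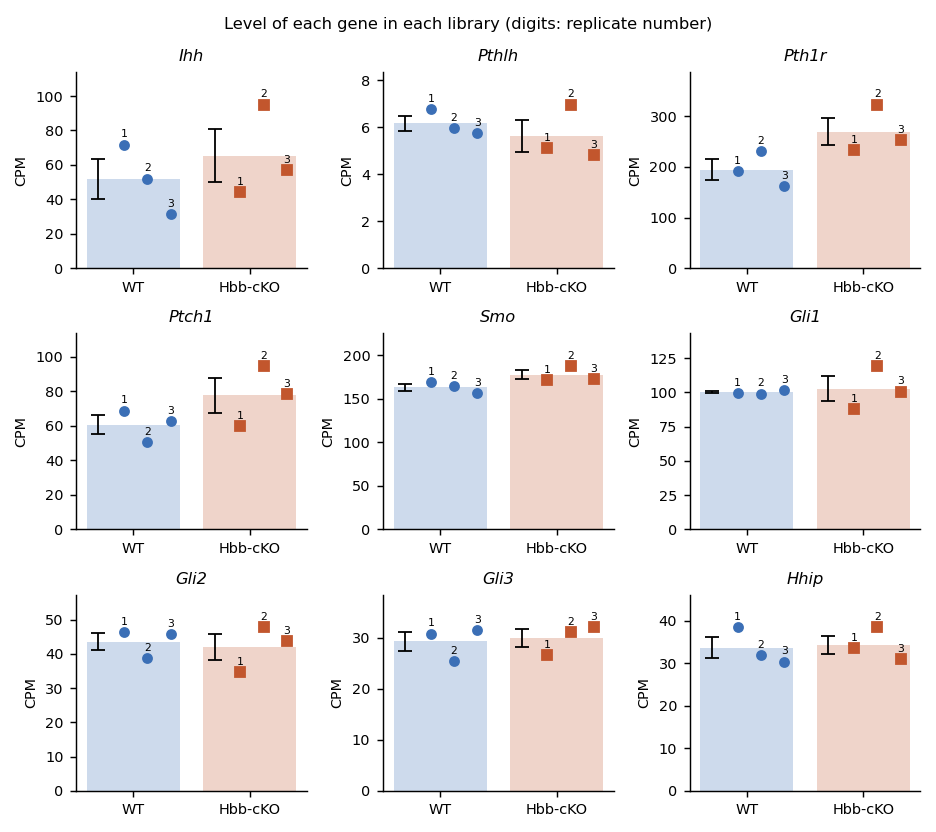
Level of each of the 9 genes in CPM (counts relative to the TMM-scaled library size, y axes from 0) in the 3 WT libraries (blue circles) and the 3 *Hbb*-cKO libraries (orange squares). Bars are means, error bars the s.e.m. and digits the replicate numbers; *Ihh* spans 31.3 to 95.02 CPM over the 6 libraries, and only for *Pth1r* and *Smo* do the groups not overlap.

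Before the genes are taken in turn, their levels can be ordered once counts are divided by exon length. In WT, the level per kilobase of exon was highest for *Pth1r*, at 66.6 ± 6.88 CPM per kb (mean ± s.e.m., n = 3 libraries), followed by *Smo* at 29.1 ± 0.676, *Gli1* at 20.04 ± 0.141 and *Ihh* at 17.0 ± 3.83 CPM per kb. The other 5 genes lay lower, with *Gli2* at 6.35 ± 0.351, *Ptch1* at 4.28 ± 0.377, *Pthlh* at 3.81 ± 0.189, *Hhip* at 3.71 ± 0.273 and *Gli3* at 3.05 ± 0.200 CPM per kb. Among all genes tested, *Pth1r* ranked 811 on this scale and *Gli3* 9855. Neighbours whose WT ranges overlapped, and whose order therefore did not exceed their spread, were *Gli1* (19.8 to 20.3 CPM per kb) and *Ihh* (10.3 to 23.6), *Ptch1* (3.57 to 4.86) and *Pthlh* (3.56 to 4.18), and *Pthlh* and *Hhip* (3.35 to 4.24). *Gli3*, with 2.66 to 3.29 CPM per kb, lay below every WT value of *Hhip*. In *Hbb*-cKO the order differed only at 2 of these overlapping pairs, as the mean of *Ihh* was 21.4 and that of *Gli1* 20.6 CPM per kb, and that of *Hhip* 3.79 and that of *Pthlh* 3.48. The receptor of PTHrP thus had the highest level per length of the 9 genes in both genotypes and its ligand was among the lowest 3.

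**Figure D2:**
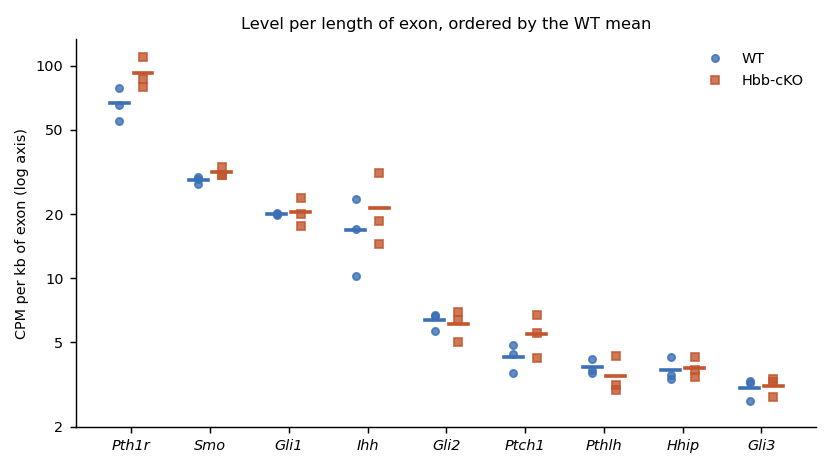
Level per length of exon (CPM per kb, log axis) of the 9 genes in order of the WT mean, with WT libraries as blue circles, *Hbb*-cKO libraries as orange squares and a horizontal line at each mean. In WT, *Pth1r* (55.3 to 79.0) and *Smo* (27.8 to 30.1) lie above the other genes, whereas in *Hbb*-cKO the highest value of *Ihh* (31.2) exceeds the lowest of *Smo* (30.6); the values of *Gli1* and *Ihh* overlap in both genotypes.

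*Ihh* (ENSMUSG00000006538, chromosome 1, 74945315 to 74951672 on the minus strand of GRCm38) encodes the hedgehog ligand of the growth plate. In WT replicates 1, 2 and 3 it was at 71.8, 52.0 and 31.3 CPM, from 1199, 855 and 543 counts, and it reached 44.3, 95.02 and 56.8 CPM in *Hbb*-cKO replicates 1, 2 and 3, from 780, 1896 and 1203 counts. The groups overlapped, with the lowest value in WT replicate 3 and the highest in *Hbb*-cKO replicate 2. The highest library was at 3.03 times the lowest, a spread present within each genotype (2.29-fold in WT and 2.14-fold in *Hbb*-cKO). The means were 51.7 ± 11.7 CPM in WT and 65.4 ± 15.3 CPM in *Hbb*-cKO (n = 3 each). The log2 fold change was 0.34 with a standard error of 0.38 (adjusted p = 0.826 in edgeR), and its 95% interval from -0.56 to 1.24 spans a change from 0.677-fold to 2.36-fold. The sign turned when *Hbb*-cKO replicate 2 was left out (-0.03) and when the skeletal muscle score was a covariate (-0.10).

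*Pthlh* (ENSMUSG00000048776, chromosome 6, 147252101 to 147264183, minus strand), the gene of PTHrP, was the least abundant of the 9 genes in counts. It was at 6.77, 5.96 and 5.77 CPM in the WT libraries, against 5.11, 6.97 and 4.81 CPM in *Hbb*-cKO replicates 1, 2 and 3, from 90 to 139 counts in all 6 libraries. *Hbb*-cKO replicate 2 held the highest value and the other *Hbb*-cKO libraries the lowest, so that the groups overlapped. The log2 fold change was -0.13 (standard error 0.20, 95% interval from -0.60 to 0.33, adjusted p = 0.885 in edgeR). The ratio of *Pthlh* to *Ihh* counts, which does not depend on library size, was 0.0950, 0.116 and 0.186 in WT, against 0.117, 0.0738 and 0.0855 in *Hbb*-cKO. Its log2 value differed by -0.49 (standard error 0.35, exact permutation p = 0.3, two-sided, adjusted p = 0.75 over the 6 ratios computed), in a design whose smallest p is 0.1.

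The spread of *Ihh* over the libraries was set beside that of other genes, as the root mean square distance between their log2 CPM after each was centred on its mean over the 6 libraries. Of 10677 candidate genes, the 4 nearest to *Ihh* were *H2-DMb1*, a chaperone subunit of class II antigen presentation (0.0996), *Comp*, a matrix protein of cartilage (0.205), *Col10a1*, the collagen of hypertrophic chondrocytes (0.213), and *Has2*, a hyaluronan synthase (0.219). The distance of *Ihh* from a flat profile on the same scale was 0.505. *Col10a1* was at 1502, 784 and 539 CPM in WT replicates 1, 2 and 3 and at 858, 1325 and 839 CPM in *Hbb*-cKO. *Col10a1* thus had its lowest value in WT replicate 3, as *Ihh* did, but its highest in WT replicate 1. *Ibsp*, another hypertrophic marker, was at 422, 587 and 762 CPM in WT and at 808, 263 and 533 CPM in *Hbb*-cKO. It was lowest in *Hbb*-cKO replicate 2, where *Ihh* was highest. The 8 hypertrophic markers had a mean log2 CPM, relative to WT, of -0.16, 0.06 and 0.10 in WT. In *Hbb*-cKO that mean was at 0.17, -0.14 and -0.08, so the list as a whole did not follow *Ihh*. The ratio of *Ihh* to *Col10a1* counts stayed between 0.0478 (WT replicate 1) and 0.0717 (*Hbb*-cKO replicate 2), a narrower range than that of either gene. This range restates the small distance between their profiles given above and adds nothing to it. Its log2 value differed between the genotypes by 0.15 (standard error 0.20, exact permutation p = 0.5). These likenesses are over 6 libraries that share their tissue and the way they were counted, and they were read as descriptions.

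Markers of chondrocytes also varied between the libraries, in an order that matched that of *Ihh* in *Hbb*-cKO but not in WT. *Col2a1*, the main collagen of cartilage, was at 26096, 29308 and 22280 CPM in WT, against 11307, 38294 and 28358 CPM in *Hbb*-cKO replicates 1, 2 and 3. The 15 chondrocyte markers summed to 39367 to 50258 CPM in WT and to 20433 to 66707 CPM in *Hbb*-cKO, the lowest sum being in replicate 1 and the highest in replicate 2, which also held the lowest and the highest *Ihh* of that genotype. The 8 hypertrophic markers summed to 2453 to 2850 CPM in WT and 2348 to 2992 CPM in *Hbb*-cKO, so the groups overlapped. The ratio of *Ihh* to *Col2a1* counts ran from 0.00141 (WT replicate 3) to 0.00393 (*Hbb*-cKO replicate 1) and differed between the genotypes by 0.50 on the log2 scale (standard error 0.40, exact permutation p = 0.3). The part of tissue make-up in the values of *Ihh* was not tested beyond covariates, which gave a log2 fold change of 0.41 with the chondrocyte score and -0.10 with the muscle score.

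**Figure D3:**
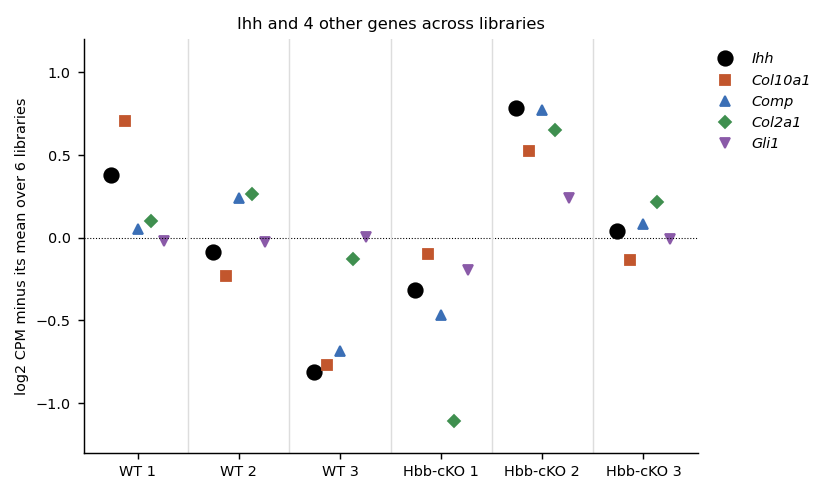
Log2 CPM of *Ihh*, *Col10a1*, *Comp*, *Col2a1* and *Gli1*, each minus its mean over the 6 libraries (y axis), for each library (x axis); each symbol is 1 library. *Ihh* is lowest in WT replicate 3 and highest in *Hbb*-cKO replicate 2, *Col2a1* is lowest in *Hbb*-cKO replicate 1, and *Gli1* stays near 0.

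*Pth1r* (ENSMUSG00000032492, chromosome 9, 110722085 to 110747145, minus strand) encodes the G protein-coupled receptor of PTHrP and parathyroid hormone. It was at 192, 231 and 162 CPM in WT replicates 1, 2 and 3 and at 234, 323 and 253 CPM in *Hbb*-cKO replicates 1, 2 and 3. Each *Hbb*-cKO library was above each WT library, although *Hbb*-cKO replicate 1 exceeded WT replicate 2 by little. The means were 195 ± 20.1 and 270.0 ± 27.2 CPM (n = 3 each), a log2 fold change of 0.47 with a standard error of 0.18, which is 1.39-fold with a 95% interval from 1.04 to 1.84. The unadjusted p was 0.0299 and the adjusted p 0.425 in edgeR (0.308 in DESeq2), and the exact permutation p was 0.1, the smallest that 3 libraries against 3 allow. With the chondrocyte score as a covariate the log2 fold change was 0.51, and with the muscle score it was 0.31. The 95 bases of exon that *Pth1r* shares with *Myl3*, a myosin light chain gene on the opposite strand, could hold reads of either gene, because no source used here gives the strand setting of the counting. *Myl3* was at 38.5 ± 11.9 CPM in WT and 43.5 ± 0.446 CPM in *Hbb*-cKO, and its highest value, 59.7 CPM, was in WT replicate 3, where *Pth1r* was lowest.

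*Ptch1* (ENSMUSG00000021466, chromosome 13, 63508328 to 63573598, minus strand), the hedgehog receptor and a hedgehog target, was at 68.9, 50.7 and 62.7 CPM in WT, against 60.0, 94.8 and 78.4 CPM in *Hbb*-cKO replicates 1, 2 and 3. *Hbb*-cKO replicates 2 and 3 were above all WT libraries and replicate 1 lay among them. The log2 fold change was 0.36 (standard error 0.19, 95% interval from -0.08 to 0.79, adjusted p = 0.569 in edgeR). *Smo* (ENSMUSG00000001761, chromosome 6, 29735503 to 29761365, plus strand), which passes the signal on, was at 169, 164 and 156 CPM in WT and at 172, 188 and 173 CPM in *Hbb*-cKO. The *Hbb*-cKO values were all higher but by a narrow margin, with a log2 fold change of 0.12 (s.e. 0.11, edgeR adjusted p = 0.761). The 95% interval of *Smo*, from -0.12 to 0.36, was the narrowest of the 9 genes.

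*Gli1* (ENSMUSG00000025407, chromosome 10, 127329882 to 127341974, minus strand), the target gene most often read as a measure of hedgehog signalling, was at 99.8, 99.1 and 101 CPM in WT replicates 1, 2 and 3 and at 88.1, 119 and 101 CPM in *Hbb*-cKO replicates 1, 2 and 3. The *Hbb*-cKO libraries lay on both sides of WT, whose s.e.m. was 0.705 CPM around a mean of 100.1 CPM. The log2 fold change was 0.04 (standard error 0.13, 95% interval from -0.26 to 0.34, adjusted p = 0.956 in edgeR). *Gli1* thus varied far less over the WT libraries than *Ihh*, and its ratio to *Ihh* counts was 1.39, 1.91 and 3.24 in WT and 1.99, 1.26 and 1.77 in *Hbb*-cKO. The log2 ratio differed by -0.32 (standard error 0.41, exact permutation p = 0.5), and that of *Ptch1* to *Ihh* by -0.0016 (standard error 0.38, exact permutation p = 1). The 4 genes nearest to *Gli1* in profile, *Yme1l1*, *Sec62*, *Tmx3* and *Fam53c*, lay at distances of 0.0420, 0.0421, 0.0423 and 0.0426, when the distance of *Gli1* from a flat profile was 0.128. *Gli1* shares 62 bases of exon with *Arhgap9* and 265 with *Gm47200*, both on the opposite strand, and *Arhgap9* was at 7.91 ± 0.837 CPM in WT and 7.32 ± 0.728 CPM in *Hbb*-cKO.

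*Gli2* (ENSMUSG00000048402, chromosome 1, 118834132 to 119053619, minus strand) was at 46.3, 38.8 and 45.7 CPM in WT and at 34.6, 47.8 and 43.8 CPM in *Hbb*-cKO replicates 1, 2 and 3. *Hbb*-cKO replicates 1 and 2 held the lowest and the highest value of the 6 libraries. *Gli3* (ENSMUSG00000021318, chromosome 13, 15463235 to 15730026, plus strand) was at 30.8, 25.5 and 31.6 CPM in WT and at 26.6, 31.2 and 32.1 CPM in *Hbb*-cKO. Their log2 fold changes were -0.05 (95% interval from -0.39 to 0.29) and 0.03 (from -0.28 to 0.35), with adjusted p of 0.945 and 0.964 in edgeR. The ratio of *Gli1* to *Gli3* counts, an activator gene over a repressor gene, lay between 3.13 and 3.88 in all 6 libraries, and its log2 value differed by -0.0078 (standard error 0.12, exact permutation p = 0.9). *Hhip* (ENSMUSG00000064325, chromosome 8, 79965851 to 80058006, minus strand) was at 38.5, 32.0 and 30.4 CPM in WT and at 33.5, 38.5 and 31.0 CPM in *Hbb*-cKO replicates 1, 2 and 3. The groups overlapped, with a log2 fold change of 0.03 (95% interval from -0.29 to 0.35, adjusted p = 0.967 in edgeR). Exons of *Gli3* and *Hhip* also overlap transcripts of the opposite strand, *Gm6556* by 188 bases and *Gm27820* by 175.

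The extremes of several genes fell in the same libraries. *Hbb*-cKO replicate 2 was the highest of the 6 libraries for *Ihh*, *Pthlh*, *Pth1r*, *Ptch1*, *Smo*, *Gli1* and *Gli2*, and *Hbb*-cKO replicate 1 was the lowest for *Gli1* and *Gli2*. *Hbb*-cKO replicate 2 was also the library with the highest chondrocyte sum and replicate 1 that with the lowest. *Hbb*-cKO replicate 2 also had the fewest *Xist* counts (6), the most Y-linked counts (2907) and the lowest muscle score (-0.44 relative to WT). With the chondrocyte score as a covariate, *Pthlh*, *Ptch1*, *Smo*, *Gli1* and *Gli2* had log2 fold changes of -0.10, 0.39, 0.13, 0.07 and -0.02. Beyond the covariate fits, the part of these library differences in the values was not tested.

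**Figure D4:**
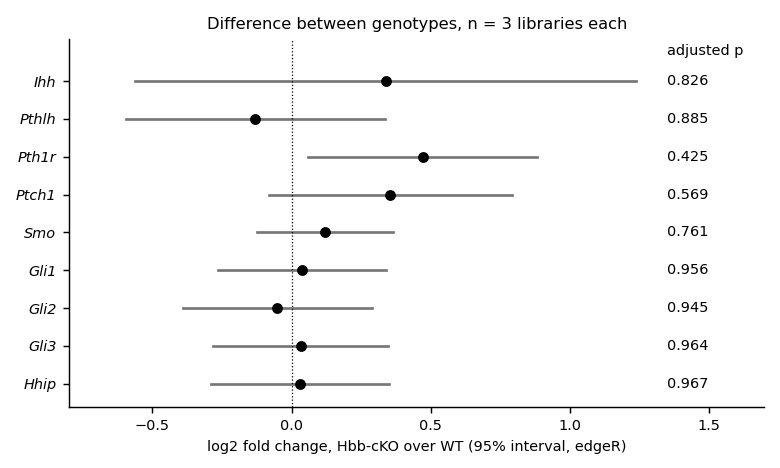
Log2 fold change of the 9 genes, *Hbb*-cKO over WT with n = 3 libraries each, and its 95% interval from edgeR, and the adjusted p at the right. The interval lies above 0 for *Pth1r* and includes 0 for the other 8 genes, and it is widest for *Ihh* (-0.56 to 1.24).

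Sequences before the start sites are shown for a ligand, a receptor and a target gene of the loop, *Ihh*, *Pth1r* and *Hhip*, as places where a reader may look for factor binding motifs. RefSeq windows on GRCm38.p6 were found for 8 of the 9 genes, in 10 windows, of which *Pth1r* has 3, and each window covers the 250 bases before a start. The gene without a window is *Gli1*, so the counts of motifs below do not cover it. The motifs searched, on both strands, were GACCACCCA, the GLI consensus, its inner part CCACCC, and TGACGTCA, the cyclic AMP response element. The windows lie at chr1:74951673-74951922, chr9:110747146-110747395 (the first of the 3) and chr8:80058009-80058258, all on the minus strand and written 5′ to 3′ on that strand, and capitals mark matches in either orientation.
Ihh: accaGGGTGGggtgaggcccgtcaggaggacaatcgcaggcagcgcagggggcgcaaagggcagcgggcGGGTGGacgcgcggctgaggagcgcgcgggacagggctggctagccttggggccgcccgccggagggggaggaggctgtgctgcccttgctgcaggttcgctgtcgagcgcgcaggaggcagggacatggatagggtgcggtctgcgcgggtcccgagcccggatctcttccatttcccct
Pth1r: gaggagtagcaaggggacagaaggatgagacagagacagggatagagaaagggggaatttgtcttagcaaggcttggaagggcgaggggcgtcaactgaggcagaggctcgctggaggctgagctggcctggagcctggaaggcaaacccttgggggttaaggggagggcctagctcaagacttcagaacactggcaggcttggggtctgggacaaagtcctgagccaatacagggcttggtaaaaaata
Hhip: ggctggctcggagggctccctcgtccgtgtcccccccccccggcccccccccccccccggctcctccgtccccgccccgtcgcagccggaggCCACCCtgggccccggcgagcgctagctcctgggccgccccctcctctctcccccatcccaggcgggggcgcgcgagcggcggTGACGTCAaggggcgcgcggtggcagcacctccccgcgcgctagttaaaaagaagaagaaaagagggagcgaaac
The full GLI consensus was in 0 of the 10 windows and in 0.225% of all 32851 windows. The inner part was in 6 of the 10, those of *Ihh*, *Pthlh*, *Smo*, *Gli2*, *Gli3* and *Hhip*, and in 28.1% of all windows. The cyclic AMP response element was in 1 of the 10, that of *Hhip*, and in 1.55% of all windows. The share of G and C was 72% for *Ihh*, 76% for *Hhip* and 56% for this window of *Pth1r*, against a median of 52.4% over all windows. Such matches are descriptions of letters and say nothing of binding in these libraries.

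Around the 9 genes, 75 other genes of the hedgehog and PTHrP pathways were listed, of which 70 were tested. Neither edgeR nor DESeq2 called any of them at an adjusted p of 0.05, and 2 were at an unadjusted p under 0.05 in edgeR, 1 in each direction, beside 10.1% of all genes tested. Of the 70 genes, 39 had a positive and 31 a negative log2 fold change, with a median of 0.03, when 47.5% of all genes tested were positive. The groups did not overlap for 11 genes, with 7 of the 70 higher in *Hbb*-cKO, beside 8.70% of all genes tested, and 4 lower, beside 8.96%. Of the other ligand genes, *Dhh*, the desert hedgehog gene, named after its values were seen, was at 3.07 to 5.29 CPM over the 6 libraries (log2 fold change 0.0065). *Shh* and *Pth*, the genes of sonic hedgehog and parathyroid hormone, had 0 counts in every library, and *Foxf2*, *Foxl1* and *Pth2r* had too few counts to be tested.

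On the side of ligand release and reception, the 8 tested genes of ligand processing and release had a median log2 fold change of -0.04 and the 5 coreceptor and glypican genes one of -0.0029. *Scube3*, a secreted protein that aids the release of hedgehog from cells, was at 59.6, 46.1 and 54.1 CPM in WT and at 21.9, 53.3 and 35.2 CPM in *Hbb*-cKO. The groups overlapped through *Hbb*-cKO replicate 2, and the log2 fold change was -0.53 (s.e. 0.30, edgeR adjusted p = 0.602). *Boc*, a hedgehog coreceptor, was at 192, 192 and 196 CPM in WT and at 133, 187 and 160 CPM in *Hbb*-cKO. All *Hbb*-cKO libraries lay below all WT libraries for *Boc*, with a log2 fold change of -0.27 (s.e. 0.14, edgeR adjusted p = 0.564). The coreceptor gene *Gas1* and the glypican gene *Gpc3* had log2 fold changes of 0.04 and -0.09.

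Among the 20 genes of signal transduction and the primary cilium, on which hedgehog signalling depends, the median was 0.06. *Ift172*, a component of intraflagellar transport, was at 36.6, 41.5 and 41.1 CPM in WT and 41.6, 48.1 and 49.7 CPM in *Hbb*-cKO, a log2 fold change of 0.23 (edgeR adjusted p = 0.561). *Stk36*, a kinase related to the Fused protein of the fly, had a log2 fold change of 0.42 at a level of 3.16 to 6.26 CPM, and *Dync2h1*, the heavy chain of the dynein of retrograde ciliary transport, one of -0.25. Of the 8 other tested target genes, with a median of 0.04, *Mycn* was at 2.88 ± 0.115 CPM in WT and 4.03 ± 0.469 CPM in *Hbb*-cKO (log2 fold change 0.49, adjusted p = 0.524 in edgeR). The target genes *Bcl2* and *Ccnd2*, of cell survival and of the cell cycle, had log2 fold changes of -0.32 and 0.17, so that the targets named did not share a sign.

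On the PTHrP side, the 13 tested genes of receptor signalling had a median of 0.06 and the 16 genes of hypertrophy control one of -0.01. *Rgs2*, which speeds the shut-off of G proteins, was at 29.9, 28.5 and 28.3 CPM in WT and at 33.4, 32.9 and 35.2 CPM in *Hbb*-cKO. The groups did not overlap, and the log2 fold change was 0.23 (s.e. 0.10, edgeR adjusted p = 0.520). *Runx3*, a transcription factor of chondrocyte maturation, was at 15.8, 14.4 and 14.7 CPM in WT and at 17.0, 21.1 and 22.8 CPM in *Hbb*-cKO, a log2 fold change of 0.44 (unadjusted p = 0.0169, adjusted p = 0.353 in edgeR).

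*Sik3* and *Hdac4* belong to the arm by which PTHrP restrains hypertrophy, in which the kinase acts on the histone deacetylase and the deacetylase holds back maturation factors. *Sik3* was at 55.9, 62.7 and 90.5 CPM in WT and at 52.5, 51.5 and 50.2 CPM in *Hbb*-cKO, a log2 fold change of -0.44 (unadjusted p = 0.0394, adjusted p = 0.458 in edgeR). *Hdac4* was at 52.5, 50.4 and 53.5 CPM in WT and at 42.1, 37.9 and 49.9 CPM in *Hbb*-cKO, a log2 fold change of -0.27 (edgeR adjusted p = 0.532). In both genes each *Hbb*-cKO library was below each WT library, and neither passed the test over all genes. Of the 16 genes of hypertrophy control, 2 were lower in this way and 2 higher, beside 8.96% and 8.70% of all genes tested. What the shared direction of *Sik3* and *Hdac4* means for this arm was not tested.

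**Figure D5:**
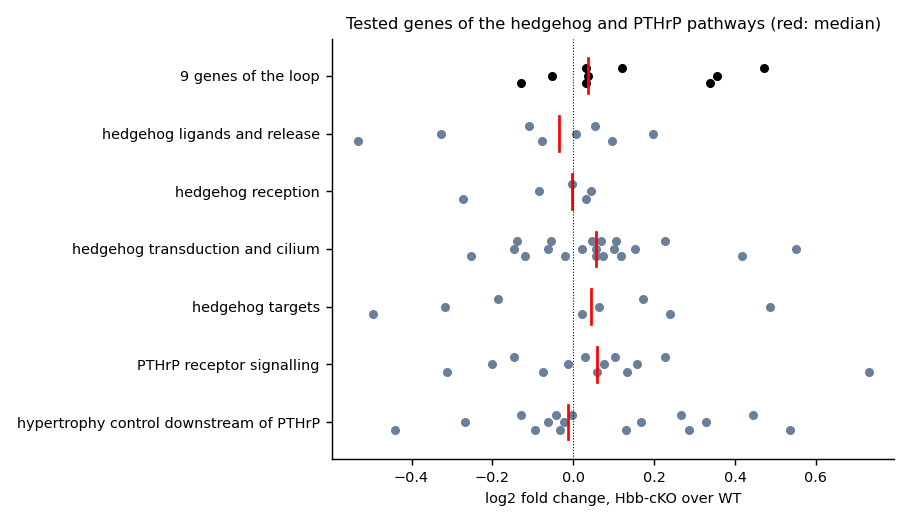
Log2 fold change between *Hbb*-cKO and WT (x axis) of the 9 genes of the loop and of the 70 other tested pathway genes by list (y axis); points are genes, spread vertically within a list only to separate them, and red lines are medians. The medians of the 6 other lists lie between -0.04 and 0.06, and none of the genes shown passed the adjusted p of 0.05.

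Facts of the libraries that bear on these values were as follows. Total counts ranged from 16544800 to 20969914, and *Hbb-bs* and *Hbb-bt* together were at 40.5% of the WT mean in *Hbb*-cKO, lower in each library. Y-linked counts were 0 in WT replicates 1 and 2 and 1010 to 2907 in the other 4 libraries. *Xist*, transcribed in females, had 6 counts in *Hbb*-cKO replicate 2 and 2725 to 10430 in the other 5, so that WT replicate 3 and *Hbb*-cKO replicates 1 and 3 held both *Xist* and Y-linked RNA, and sex was not balanced between the genotypes. All 8 proliferation markers (212 to 257 CPM summed in WT and 365 to 426 in *Hbb*-cKO) and all 8 neutrophil markers (17.5 to 37.4 and 26.8 to 124 CPM) had positive log2 fold changes with an unadjusted p under 0.05 in edgeR. So had 3 of 6 endothelial markers (465 to 549 and 586 to 673 CPM), and 10.1% of all genes tested had such a p in either direction. No marker of these lists passed an adjusted p of 0.05 in edgeR. DESeq2 called 5 proliferation, 2 neutrophil and 0 endothelial markers, beside 1.45% of all genes. Skeletal muscle markers, with *Acta1* and *Myh8* among them, summed to 32282 to 53016 CPM in WT and 26648 to 36436 CPM in *Hbb*-cKO, so muscle RNA was abundant in tissue labelled as cartilage. Of the 10, 3 had a negative log2 fold change with an unadjusted p under 0.05 in edgeR, beside 10.1% of all genes in either direction. *Krt5* of the epidermis list was at 3.24 ± 0.571 CPM in WT and 9.85 ± 0.353 CPM in *Hbb*-cKO (adjusted p = 0.0732 in edgeR and 1.98e-06 in DESeq2). Only 2 of the 5 epidermis markers were tested, and the other, *Krt10*, had a log2 fold change of 0.12. The untested ones had at most 9 counts in a library. In the erythroid list, *Alas2* had a log2 fold change of -1.60 (edgeR adjusted p = 0.184) and *Slc4a1* one of 0.29. Of the 5 erythroid markers, 3 were positive and 2 negative, with a median of 0.29. Medians of the resting zone, osteoblast, tendon and Schwann cell lists were -0.15, -0.11, 0.08 and -0.63, with groups whose sums overlapped. The part of these differences in the values of the 9 genes was not tested apart from the covariates named.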

How the data were processed

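The 6 libraries hold poly(A) RNA of knee joint cartilage at postnatal day 6 from WT (3) and *Hbb*-cKO mice (3), grouped by the genotype in the labels. The authors deposited whole-number counts per gene, not normalized. HISAT2 2.1.0, StringTie, edgeR, fastp 0.19.5 and CASAVA 1.8 appear in the submitters' notes; no source used here gives settings, genome build or strand. Exon lengths came from GENCODE M21 (GRCm38), in which 55227 identifiers were found, 99.4% of them at the position in the table.

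All 6 libraries were analysed together. Genes were kept by edgeR 4.0.16 (minimum count 10, minimum total 15; 17175 of 31373 with a count), scaled by TMM and compared by the quasi-likelihood test with robust dispersions and Benjamini-Hochberg adjustment over all genes, at 0.05 (R 4.3.3). CPM are counts relative to the TMM-scaled library size, and intervals for fold changes are 95%. Centred profiles used log2 CPM with a prior count of 2, for genes other than predicted genes of mean log2 CPM 3 or more. Ratios used counts plus 1 and exact two-sided permutation tests over libraries. Counts of the 15 pairs of libraries differed by more than sampling noise (chi-square of 22.2 to 60.8 per gene), so no library was a copy of another and each was counted as a replicate; whether they came from separate mice is not stated in the labels. Alternatives were DESeq2 1.42.0, RLE factors, TMM without adult globin genes, other filters, a replicate block, marker scores as covariates and leaving out each library; Y-linked expression as a covariate was added after the data were seen. The steps were tested on simulated data. Besides the 9 genes, the text names up to 3 genes per pathway list with the smallest p, up to 2 per marker list with the highest CPM, and the 4 nearest in profile to *Ihh* and to *Gli1*. *Myl3*, *Arhgap9* and the other overlapping genes, and the untested pathway genes, were named besides for their position or counts. The members and lists were chosen with earlier results of these data known. No columns of other samples were present, and fold changes of the authors were not used.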

Additional observations from a re-analysis of the deposited data

How the results depend on the processing

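Under 15 alternatives, 0 of the 9 genes and 0 of the 70 other pathway genes passed an adjusted p of 0.05, and *Pth1r* kept a positive log2 fold change between 0.31 and 0.65, with its lowest adjusted p at 0.250. Of the 135 refitted values of the 9 genes, 122 kept their sign and 13 turned it, all of them in genes with intervals that include 0. With the skeletal muscle score as a covariate, *Ihh* was at -0.096, *Gli1* at -0.017 and *Hhip* at -0.066. With Y-linked expression as a covariate, *Gli1* was at -0.018 and *Gli3* at -0.067, and *Ihh* at 0.86. Leaving out each library in turn gave ranges of -0.031 to 0.66 for *Ihh*, -0.31 to -0.02 for *Pthlh*, 0.19 to 0.52 for *Ptch1*, -0.084 to 0.14 for *Gli1*, -0.15 to 0.077 for *Gli2*, -0.044 to 0.12 for *Gli3* and -0.058 to 0.15 for *Hhip*. The same step gave log2 ratio differences of -0.60 to 0.013 for *Gli1* to *Ihh*, -0.18 to 0.35 for *Ptch1* to *Ihh*, -0.091 to 0.082 for *Gli1* to *Gli3*, -0.70 to -0.22 for *Pthlh* to *Ihh*, 0.021 to 0.29 for *Ihh* to *Col10a1* and 0.23 to 0.77 for *Ihh* to *Col2a1*, and the highest value of the first 2 came without WT replicate 3, in which *Ihh* was lowest.

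Over all genes, 18 passed, against 249 in DESeq2, 60 with no filter, 3 with the chondrocyte score and 48 with Y-linked expression as a covariate. Leaving out a library gave 1 (WT replicate 1) to 39 genes (WT replicate 3), with 6 without *Hbb*-cKO replicate 2 and 2 without *Hbb*-cKO replicate 3; the cause was not tested. With the replicate block, 4 genes passed, none of them among the 9. Same-numbered libraries did not deviate together (r = -0.026, -0.108 and -0.029 over genes). The highest r of a WT library with any *Hbb*-cKO library was 0.097, so these values cannot decide whether the numbers mark pairs. A shared litter or preparation was not tested. With 3 libraries a genotype, the 95% interval of *Ihh* runs from 0.677-fold to 2.36-fold.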
